A study of Homo sapiens with 12 samples.

Results

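The genes described here are GREB1 together with steroid hormone receptors and genes that steroid hormones are known to induce: ESR1, PGR, NR3C1, NR3C2, FKBP5, TSC22D3, ZBTB16 and PER1. GREB1 was chosen by its measured signal, which was very high in one of the lines studied. The other genes were added for their known roles, with earlier results of these data known, to ask whether high GREB1 went with receptor genes. Of the 9 genes, 7 had a probe set named for them among the 17687 genes named on the array, and 5 of these passed a filter on dim signals that kept 12757 genes. ESR1 and PGR did not pass it. FKBP5 and PER1 are not named for a probe set used here and were not analysed here.

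RNA was measured on 12 whole-transcript arrays from isogenic mutants of MCF-10A, a human line of breast epithelium that does not form tumours. The groups were co-cultures of both lines (4 arrays), the HER2 L755S line alone (4 arrays) and the PIK3CA E545K line alone (4 arrays). HER2 L755S is a kinase domain mutation of the receptor HER2, and PIK3CA E545K alters the subunit of PI3K that phosphorylates lipids. All cultures had EGF at a physiologic level in their medium, were left without further treatment, and were collected between day 7 and day 14. At harvest about 75% of the co-cultured cells carried the HER2 mutation and 25% the PIK3CA mutation, by digital PCR per the labels. No MCF-10A line without either mutation was analysed here, and the labels give 1 line for each mutation. A difference between the lines can therefore not be told apart from a difference between clones. Whether the medium held a glucocorticoid or another steroid is not given in the sources used here, and the labels list no hormone as a treatment.

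Steroid receptors are transcription factors that are held ready by chaperones, bind their hormone inside the cell and then act on DNA. The estrogen receptor encoded by ESR1 induces GREB1, which in turn binds the receptor as a coregulator, and PGR, the progesterone receptor gene. NR3C1 encodes the glucocorticoid receptor and NR3C2 the mineralocorticoid receptor, which respond to overlapping sets of hormones. In the breast, estrogen and progesterone receptors mark a luminal, hormone-sensing cell, whereas the glucocorticoid receptor is made by most cell types. MCF-10A is commonly used as a basal-like line without estrogen receptor.

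The values are log2 probe-set signals as deposited. Array medians were 6.41 to 6.49. The negative control probe sets of an array had a median of 3.39 to 3.79 and a 95th percentile of 6.32 to 7.12, against which dim genes are read here. Arrays of a group correlated at 0.9906 or more across genes. The basal keratin gene KRT5 was bright throughout, at 17.13 in the co-culture, 17.33 in the HER2 L755S line and 17.44 in the PIK3CA E545K line. All 5 basal markers with a probe set were above the 95th percentile of the negative controls on all 12 arrays, and their summed level was 17.57 to 17.61, 17.64 to 17.73 and 17.92 to 18.02 on the log2 scale in these groups. Of 11 hormone-sensing luminal markers, 4 were above it on all arrays and 6 on none, ESR1, PGR, TFF1 and FOXA1 among the 6. The summed level of the luminal list was 15.72 to 15.92 in the co-culture, 16.40 to 16.58 in the HER2 L755S line and 15.49 to 15.66 in the PIK3CA E545K line. The brightest gene of that sum was KRT19, and its members moved both ways: KRT8 and KRT19 were higher in the HER2 L755S than in the PIK3CA E545K line by 2.32 and 1.25, while KRT18 and XBP1 differed by -2.32 and -2.06. Of 6 fibroblast markers, 2 were above the 95th percentile on all arrays and 3 on none, with summed levels of 9.59 to 9.78, 10.93 to 11.30 and 8.95 to 9.44. DCN alone differed widely among these, at 8.03 in the co-culture, 10.70 in the HER2 L755S line and 7.07 in the PIK3CA E545K line. Of 7 blood and endothelial markers, 0 were above it on all arrays and 5 on none, with summed levels of 8.38 to 8.54, 7.88 to 8.04 and 8.34 to 8.64. The part of these markers in the results below was not tested.

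GREB1 was close to an on or off pattern. Its log2 signal was 4.55, 3.86, 4.56 and 4.42 in the co-cultures, 12.94, 13.25, 13.00 and 12.72 in the HER2 L755S cultures, and 3.52, 3.38, 3.59 and 4.27 in the PIK3CA E545K cultures. Every array of the HER2 L755S line was far above every other array, while the co-culture and the PIK3CA E545K line overlapped. The mean was 12.98 ± 0.22 in the HER2 L755S line and 3.69 ± 0.40 in the PIK3CA E545K line (SD, n = 4 each), a difference of 9.29 ± 0.20 (SE). In rank, GREB1 stood at a mean percentile of 95.2 of all named genes in the HER2 L755S line and of 18.4 in the PIK3CA E545K line. Since this contrast chose GREB1, its values are a description and no test is given for it in any comparison. Outside the HER2 L755S line the signal lay below the 95th percentile of the negative controls, so that the differences of the HER2 L755S line from the other groups are lower limits in size.

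In the co-culture, where most cells were of the HER2 mutant line, GREB1 averaged 4.35 ± 0.33, against 12.98 ± 0.22 in the HER2 L755S line (SD, n = 4 each), a difference of -8.63 ± 0.20 (SE). The co-culture and the PIK3CA E545K line both lay within the range of the negative controls, so no difference between them is read. A blend of the single cultures, 75% HER2 L755S and 25% PIK3CA E545K on the linear scale, would have given 12.56. The co-culture lay below that blend by a difference of -8.22 ± 0.20 (SE), again a lower limit in size. Expressed as a position on the linear scale, with 0% for the PIK3CA E545K mean and 100% for the HER2 L755S mean, the co-culture stood at 0.0929%, and at 0.0203% to 0.132% on single arrays. Over the 1150 genes with a log2 difference of 1 or more in favour of the HER2 L755S line, the position had a median of 18.2% and quartiles of 7.13% and 31.2%. Since GREB1 lay within the range of the negative controls in both the co-culture and the PIK3CA E545K line, its position says no more than that it was near 0, and it is not ranked among these genes. For a single gene in such mixed RNA, fewer cells of a type and less RNA per cell cannot be told apart. The positions of other genes in the same RNA, such as TSC22D3 at 41.9%, differed widely from that of GREB1.

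**Figure D1:**
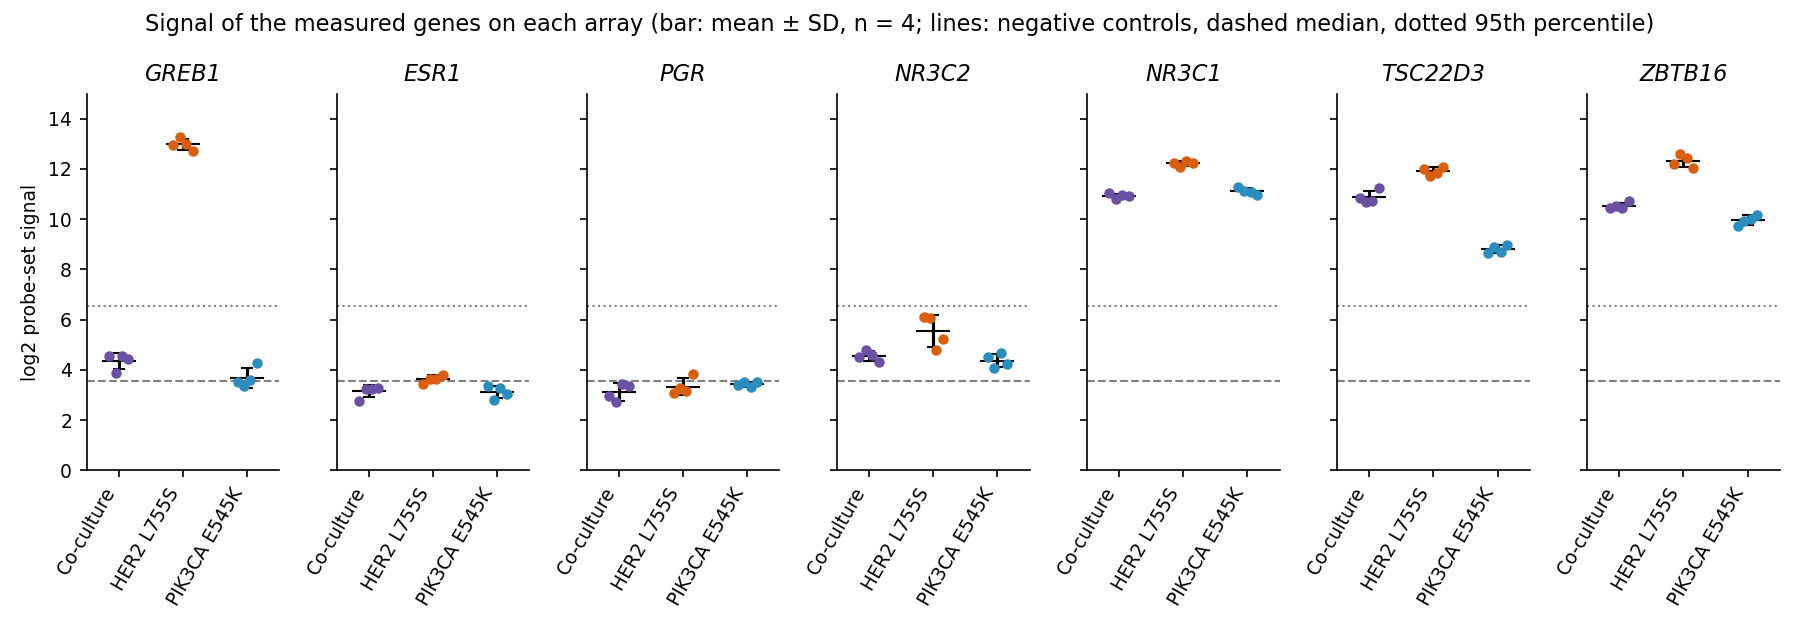
The log2 probe-set signal of the 7 measured genes on each array, by group, with the mean and SD (n = 4 arrays a group). The dashed line is the median over arrays of the negative control median, the dotted line that of the negative control 95th percentile. GREB1 is high in the HER2 L755S line alone, at 12.72 to 13.25, while ESR1 and PGR lie at the negative controls in every group.

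The receptor that induces GREB1 was not detectable beside it. ESR1, the estrogen receptor gene, had a log2 signal of 2.78, 3.26, 3.25 and 3.30 in the co-cultures, 3.45, 3.64, 3.62 and 3.81 in the HER2 L755S cultures, and 3.35, 2.80, 3.30 and 3.05 in the PIK3CA E545K cultures. It was above the negative control median on 1 of 12 arrays and above the 95th percentile on 0. In a limma fit of all named genes without the filter, ESR1 differed by 0.51 ± 0.15 between the HER2 L755S and the PIK3CA E545K line (SE, adjusted p 0.00803). The negative controls moved the same way, with medians of 3.63 to 3.79 in the HER2 L755S line and 3.39 to 3.57 in the PIK3CA E545K line, and their part in the difference was not tested. The co-culture differed from the HER2 L755S line by -0.48 ± 0.15 (limma adjusted p 0.0134) and from the PIK3CA E545K line by 0.02 ± 0.15 (0.958).

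PGR, the progesterone receptor gene and itself an estrogen target, read 2.97, 2.72, 3.46 and 3.38 in the co-cultures, 3.08, 3.27, 3.15 and 3.83 in the HER2 L755S cultures, and 3.39, 3.52, 3.32 and 3.50 in the PIK3CA E545K cultures. The groups overlapped fully, and PGR was above the negative control median on 2 of 12 arrays and above the 95th percentile on 0. In the fit without the filter it passed in no comparison, with a difference of -0.10 between the HER2 L755S and PIK3CA E545K lines (95% interval -0.46 to 0.26, limma adjusted p 0.684). The second estrogen receptor gene, ESR2, averaged 3.02 ± 0.22 in the co-culture, 2.98 ± 0.17 in the HER2 L755S line and 2.86 ± 0.17 in the PIK3CA E545K line (SD, n = 4 each), below the negative control median on all 12 arrays. At such levels an array sets only an upper bound on expression.

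The glucocorticoid receptor gene, by contrast, was bright everywhere and highest where GREB1 was. NR3C1 had a log2 signal of 11.04, 10.81, 10.97 and 10.92 in the co-cultures, 12.23, 12.09, 12.32 and 12.24 in the HER2 L755S cultures, and 11.28, 11.14, 11.07 and 10.98 in the PIK3CA E545K cultures. The HER2 L755S arrays lay above all others, and the co-culture overlapped with the PIK3CA E545K line. The HER2 L755S line was higher than the PIK3CA E545K line by 1.10 ± 0.09 (SE, limma adjusted p 6.11e-10), which is 2.15-fold. The co-culture was lower than the HER2 L755S line by a difference of -1.29 ± 0.09 (7e-11). It did not pass against the PIK3CA E545K line, with a difference of -0.18 (95% interval -0.38 to 0.01, limma adjusted p 0.167). Against the blend, expected at 12.01, it was lower by a difference of -1.08 ± 0.09 (1.63e-09).

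NR3C2, the mineralocorticoid receptor gene, was dim. It read 4.50, 4.81, 4.59 and 4.31 in the co-cultures, 6.12, 6.06, 4.80 and 5.22 in the HER2 L755S cultures, and 4.52, 4.06, 4.66 and 4.22 in the PIK3CA E545K cultures. The HER2 L755S arrays fell into a brighter and a dimmer pair, and the dimmest of them was level with the brightest co-culture array. The difference between the HER2 L755S and PIK3CA E545K lines was 1.18 ± 0.23 (SE, limma adjusted p 0.000138), and that between the co-culture and the HER2 L755S line -1.0 ± 0.23 (0.00104). The co-culture did not pass against the PIK3CA E545K line (0.18, 95% interval -0.30 to 0.67, limma adjusted p 0.639). NR3C2 was above the negative control median on all 12 arrays and above the 95th percentile on 0, so its level itself was not clear of background.

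The measured glucocorticoid targets TSC22D3 and ZBTB16 were bright and followed the order of the lines, but kept different shares in the co-culture. TSC22D3 encodes GILZ, a leucine zipper protein that mediates anti-inflammatory effects of glucocorticoids and is also induced by FOXO factors. Its log2 signal was 10.84, 10.68, 10.71 and 11.24 in the co-cultures, 11.98, 11.73, 11.85 and 12.07 in the HER2 L755S cultures, and 8.64, 8.90, 8.68 and 8.99 in the PIK3CA E545K cultures. None of the 3 groups overlapped. The HER2 L755S line was higher than the PIK3CA E545K line by 3.10 ± 0.13 (SE, limma adjusted p 9.5e-16), which is 8.59-fold. The co-culture was lower than the HER2 L755S line by a difference of -1.04 ± 0.13 (3.1e-07) and higher than the PIK3CA E545K line by 2.06 ± 0.13 (6.12e-11). It stood at 41.9% of the way from the PIK3CA E545K to the HER2 L755S mean, 35.2% to 58.3% on single arrays. It was below the blend of 11.55 by a difference of -0.68 ± 0.12 (limma adjusted p 0.000121).

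ZBTB16 encodes PLZF, a zinc finger repressor that glucocorticoids and progestins induce strongly. It had a log2 signal of 10.43, 10.54, 10.44 and 10.72 in the co-cultures, 12.20, 12.59, 12.42 and 12.02 in the HER2 L755S cultures, and 9.72, 9.94, 10.00 and 10.18 in the PIK3CA E545K cultures. Here too the groups did not overlap. The HER2 L755S line was higher than the PIK3CA E545K line by 2.35 ± 0.12 (SE, limma adjusted p 9.49e-14), which is 5.1-fold. The co-culture was lower than the HER2 L755S line by a difference of -1.78 ± 0.12 (2.66e-11) and higher than the PIK3CA E545K line by 0.57 ± 0.12 (0.00116). Its position was 11.9%, 9.5% to 17.0% on single arrays, and it lay below the blend of 11.98 by a difference of -1.45 ± 0.12 (limma adjusted p 1.71e-09). The position of NR3C1 was -10.4% (-16.7% to -4.73% on single arrays), although its difference from the PIK3CA E545K line did not pass. That of NR3C2, which was not clear of background, was 10.8% (-3.05% to 28.2%).

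**Figure D2:**
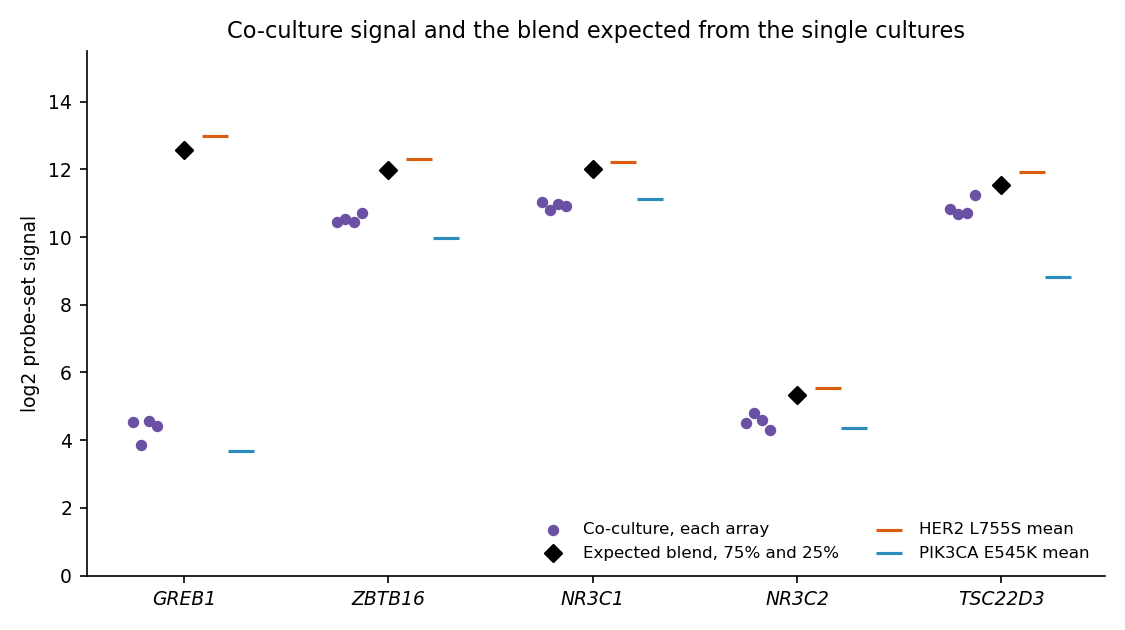
The log2 signal of each co-culture array (dots) beside the blend expected from 75% HER2 L755S and 25% PIK3CA E545K signal (diamonds) and the means of the single cultures (bars). All co-culture arrays lie below the blend, GREB1 by the widest distance of the 5 genes (4.35 against 12.56) and TSC22D3 by the narrowest (10.87 against 11.55).

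Over the 4 genes tested beside GREB1 (NR3C1, NR3C2, TSC22D3 and ZBTB16), 4 were higher in the HER2 L755S than in the PIK3CA E545K line, where 30% of all tested genes were higher and 29.5% lower. Against the HER2 L755S line, the co-culture had 4 lower, beside 24.9% of all genes higher and 26.0% lower. Against the PIK3CA E545K line, 2 were higher (TSC22D3 and ZBTB16) and 2 did not pass, beside 11.1% of all genes higher and 14.6% lower. Against the blend 4 were lower, beside 18.5% of all genes higher and 22.3% lower. On the position scale used above the blend stands at 75%. The 1150 genes higher in the HER2 L755S line by 1 or more had a median of 18.2% and an upper quartile of 31.2%. A place below the blend was therefore common among such genes, and TSC22D3, at 41.9%, lay above that quartile. These comparisons share their arrays, and since the genes were chosen with results known, the counts lend no support of their own.

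Promoter sequences from RefSeq (GRCh38.p14), 250 bases before to 50 bases after an annotated start, were found for 7 of the 9 genes, in 27 windows. They were searched on both strands for the half-site bound by the glucocorticoid receptor and its relatives (AGAACA), for the half-site bound by estrogen receptors (AGGTCA) and for a FOXO site (GTAAACA). The glucocorticoid half-site was in 2 of the 27 windows, of FKBP5 and ESR1, and in 14.8% of all 35116 promoter windows. The estrogen half-site was in 1, of PER1, and in 13.8% of all windows. The FOXO site was in 2, and in 3.42% of all windows. These 2 windows belong to TSC22D3 and NR3C1 and are shown with the match in capitals, on the strand of the gene. Both genes were measured as higher in the HER2 L755S line. So were NR3C2, with the site in 0 of 4 windows, and ZBTB16, for which no window was found. The match begins at base 104 of the TSC22D3 window and at base 192 of the NR3C1 window, and was found in 1 of 4 windows of TSC22D3 and 1 of 7 of NR3C1.

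TSC22D3, chrX:107717013-107717312, minus strand: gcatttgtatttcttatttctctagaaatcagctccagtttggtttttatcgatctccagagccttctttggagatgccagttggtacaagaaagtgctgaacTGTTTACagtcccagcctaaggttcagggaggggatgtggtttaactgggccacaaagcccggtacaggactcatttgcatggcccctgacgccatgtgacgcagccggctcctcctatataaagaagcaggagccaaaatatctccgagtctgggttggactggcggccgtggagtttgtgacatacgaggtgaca
NR3C1, chr5:143403234-143403533, minus strand: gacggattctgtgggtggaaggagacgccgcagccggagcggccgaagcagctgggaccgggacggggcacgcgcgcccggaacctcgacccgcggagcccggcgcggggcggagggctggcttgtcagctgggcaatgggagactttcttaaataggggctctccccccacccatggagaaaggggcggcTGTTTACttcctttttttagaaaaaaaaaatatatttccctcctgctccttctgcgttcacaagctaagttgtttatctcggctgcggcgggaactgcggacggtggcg

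A match is a description of these letters, and the arrays do not show from which start a transcript came.

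The other receptor genes were mostly dim. The counts of higher and lower genes given here for this and the following lists include genes that passed the filter only through the group where they were high, GPER1, MYB and CRY2 among them, and so are a description that supports nothing. Of 10 listed receptor genes, 9 had a probe set and 5 passed the filter. Among the 5, 2 were higher in the HER2 L755S than in the PIK3CA E545K line (NR3C1 and NR3C2), 1 was lower and 2 did not pass. Over all genes 30% were higher and 29.5% lower, and the median was 0.05, beside 0.28 for the list. The lower gene of the 5 was GPER1, a membrane receptor that binds estrogens. It averaged 6.85 ± 0.15 in the co-culture, 3.80 ± 0.33 in the HER2 L755S line and 6.70 ± 0.17 in the PIK3CA E545K line (SD, n = 4 each). Its difference was -2.90 between the HER2 L755S and PIK3CA E545K lines and 3.05 between the co-culture and the HER2 L755S line, given without a test since it passed the filter only through the 8 arrays where it was high. Its signal in the HER2 L755S line lay at the negative controls, so that these differences are lower limits in size. The orphan receptor gene ESRRA differed by 0.28 between the HER2 L755S and PIK3CA E545K lines (limma adjusted p 0.0982). That difference passed without HER2 L755S replicate 1 (limma adjusted p 0.0212) and with quantile normalization (0.0322). Between the co-culture and the HER2 L755S line ESRRA differed by -0.55 (limma adjusted p 0.00223). ESRRB and ESRRG, named after their values were seen, had group means of 5.69 to 5.84 and of 4.01 to 4.03, below the 95th percentile of the negative controls on all 12 arrays.

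The estrogen-responsive genes did not move as a block with GREB1. Of 30 listed, 28 had a probe set and 22 passed the filter, 21 of them besides GREB1. Of the 21, 5 were higher and 9 lower in the HER2 L755S than in the PIK3CA E545K line, beside 30% and 29.5% of all genes. The median over the 22 genes, GREB1 included, was 0.01, beside 0.05 over all genes. CTSD, the gene of the lysosomal protease cathepsin D, was higher by 1.11 ± 0.09, the ubiquitin ligase gene SIAH2 by 1.05 ± 0.14 and IL6ST, which encodes the shared receptor subunit gp130, by 1.00 ± 0.09 (SE, limma adjusted p 2.4e-10, 4.94e-07 and 2.41e-09). CCND1, the cyclin D1 gene, was lower, with a difference of -5.97 ± 0.12 (limma adjusted p 3.54e-21). XBP1, a transcription factor gene of secretory cells, differed by -2.06. The secreted hormone gene STC2 differed by -2.50, a lower limit in size since it was not clear of the negative controls in the HER2 L755S line. The trefoil factor gene TFF1, a standard estrogen target, averaged 3.57 ± 0.13 in the co-culture, 3.57 ± 0.24 in the HER2 L755S line and 3.52 ± 0.05 in the PIK3CA E545K line (SD, n = 4 each), at the negative controls in all groups. It was named after its values were seen.

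Of the 21 estrogen-responsive genes, the co-culture had 8 higher and 5 lower than the HER2 L755S line, beside 24.9% and 26.0% of all genes. CCND1 was higher by 4.46 ± 0.12, STC2 by at least 3.37 ± 0.18 and XBP1 by 2.31 ± 0.11 (SE, limma adjusted p 8.35e-19, 1.84e-13 and 4.43e-14). SIAH2 differed by -0.98, CA12, a carbonic anhydrase gene, by -0.82 and IL6ST by -0.78. Against the PIK3CA E545K line 3 were higher and 6 lower, beside 11.1% and 14.6% of all genes. EGR3, an early-response transcription factor gene, was higher there by 2.43 ± 0.31 (SE, limma adjusted p 3.95e-06), at 10.15 to 10.64 in the co-culture and 7.58 to 8.45 in the PIK3CA E545K line. CCND1 was lower by a difference of -1.51 ± 0.12 (2.34e-09).

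The glucocorticoid-responsive genes moved in both directions. Of 27 listed, 22 passed the filter. Of these, 12 were higher, 7 lower and 3 did not pass in the HER2 L755S against the PIK3CA E545K line, beside 30% and 29.5% of all genes. The list median was 0.69, beside 0.05 over all genes. Besides TSC22D3, the largest increases were in KLF9, a hormone-induced Kruppel-like factor gene, SGK1, a kinase gene induced by both corticoid receptors, and MAOA, the monoamine oxidase A gene. KLF9 read 8.46 to 9.60 in the co-culture, 11.91 to 12.68 in the HER2 L755S line and 8.96 to 9.89 in the PIK3CA E545K line. SGK1 read 13.52 to 13.77, 14.58 to 14.95 and 11.56 to 12.22, and MAOA 5.36 to 6.15, 7.68 to 8.53 and 5.06 to 5.74, in the same groups. In the HER2 L755S against the PIK3CA E545K line, KLF9 was higher by 2.96 ± 0.21, SGK1 by 2.87 ± 0.11 and MAOA by 2.80 ± 0.21 (SE, limma adjusted p 2.1e-11, 6.32e-16 and 7.22e-11). For MAOA this is a lower limit in size, since it was above the 95th percentile of the negative controls on the 4 HER2 L755S arrays only. The lower genes included ANGPTL4, a lipase inhibitor gene (-4.25), the metallothionein genes MT2A (-2.18) and MT1X (-1.36), and HSD11B2 (-1.17). ANGPTL4 and HSD11B2 were not clear of the negative controls in the HER2 L755S line, so that their differences are lower limits in size. Metallothionein genes are near copies of each other, so which of them gave the signal is uncertain.

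**Figure D3:**
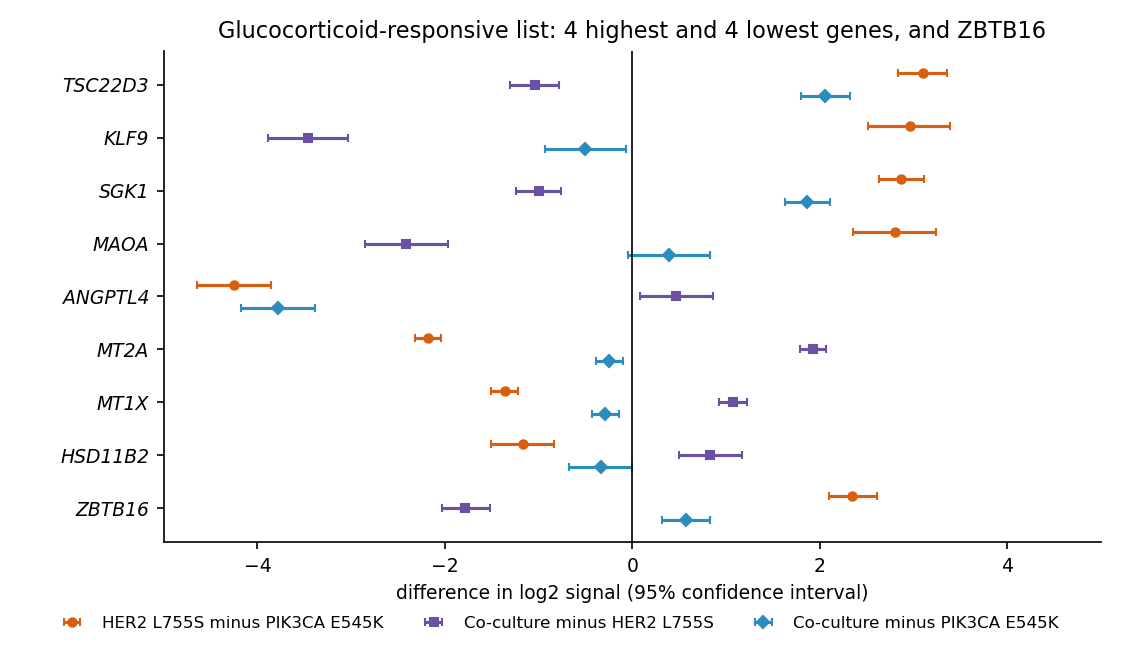
Differences in log2 signal with 95% confidence intervals for 8 genes of the glucocorticoid-responsive list, the 4 most raised and the 4 most lowered between the single cultures, and for ZBTB16. Circles are HER2 L755S minus PIK3CA E545K, squares co-culture minus HER2 L755S, and diamonds co-culture minus PIK3CA E545K. KLF9 and MAOA do not pass in the last of these (-0.50 and 0.39), whereas TSC22D3 and SGK1 are higher by 2.06 and 1.87.

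The co-culture separated these targets. Against the HER2 L755S line, 6 of the 22 were higher, 12 lower and 4 did not pass, beside 24.9% and 26.0% of all genes, and the median was -0.40, beside -0.05. KLF9 differed by -3.46 ± 0.21, MAOA by -2.41 ± 0.21 and GLUL, the glutamine synthetase gene, by -1.46 ± 0.08 (SE, limma adjusted p 2.21e-12, 1.61e-09 and 6.25e-13), while MT2A was higher by 1.93. The MAOA difference is again a lower limit in size, since the co-culture was not clear of the negative controls. Against the PIK3CA E545K line, 7 were higher and 8 lower, beside 11.1% and 14.6% of all genes. TSC22D3 and SGK1 remained higher there, SGK1 by 1.87 ± 0.11 (SE, limma adjusted p 6.12e-11). KLF9 did not pass (-0.50, limma adjusted p 0.0831), nor did MAOA (0.39, 0.195). Without co-culture replicate 4 KLF9 was lower by a difference of -0.75 (0.00457), and without PIK3CA E545K replicate 2 by -0.64 (0.039). ANGPTL4 was lower by a difference of -3.78, again a lower limit in size, the sodium pump subunit gene ATP1B1 by -1.25 and the phosphatase gene DUSP1 by -0.78. Against the blend, 5 were higher and 13 lower, beside 18.5% and 22.3% of all genes, with KLF9 at -3.10 ± 0.20 (limma adjusted p 4.34e-11).

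The progestin-responsive list was short, and 7 of its 12 genes were tested. In the HER2 L755S against the PIK3CA E545K line, 4 were higher (WNT4, KLF9, ZBTB16 and STAT5A) and 0 lower. The other 3 did not pass: ID4 differed by -0.12, CALCA by 0.23 and IHH by 0.04. Over all genes 30% were higher and 29.5% lower, and the median was 0.05, beside 0.45 for the list. KLF9 and ZBTB16 are on the glucocorticoid-responsive list too. WNT4, a ligand gene that progesterone induces in the mammary gland, averaged 6.46 ± 0.42 in the co-culture, 12.02 ± 0.03 in the HER2 L755S line and 5.64 ± 0.13 in the PIK3CA E545K line (SD, n = 4 each). It was higher in the HER2 L755S than in the PIK3CA E545K line by 6.38 ± 0.17 (SE, limma adjusted p 3.43e-19), a lower limit in size since the PIK3CA E545K line was not clear of the negative controls. The co-culture was below the HER2 L755S line by a difference of -5.57 ± 0.17 (limma adjusted p 7.52e-18). This too is a lower limit in size, since co-culture replicates 1 and 2, at 6.19 and 6.08, were not clear of the negative controls. STAT5A was higher by 0.45 (0.0167), but without HER2 L755S replicate 1 by 0.30 and no longer past the threshold (limma adjusted p 0.0894). TNFSF11, the gene of RANKL and a central progesterone target in breast, averaged 3.24 ± 0.29, 3.47 ± 0.31 and 3.31 ± 0.20 in the co-culture, HER2 L755S and PIK3CA E545K groups (SD, n = 4 each), at the negative controls. It was named after its values were seen.

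Of 12 androgen-responsive genes tested, 2 were higher and 5 lower in the HER2 L755S than in the PIK3CA E545K line, beside 30% and 29.5% of all genes, with a median of -0.11. PMEPA1, an inhibitor of TGF-beta signalling, differed by -4.21 ± 0.12 (SE, limma adjusted p 2.9e-18), the elongation factor gene ELL2 by -1.99, and ALOX15B by -1.47. HPGD, which encodes a prostaglandin-degrading enzyme, was higher by 1.26 ± 0.15 (1.59e-07). The co-culture had 6 higher and 2 lower than the HER2 L755S line, beside 24.9% and 26.0% of all genes, with PMEPA1 higher by 2.96. Against the PIK3CA E545K line 0 were higher and 5 lower, beside 11.1% and 14.6% of all genes, and 7 did not pass.

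**Figure D4:**
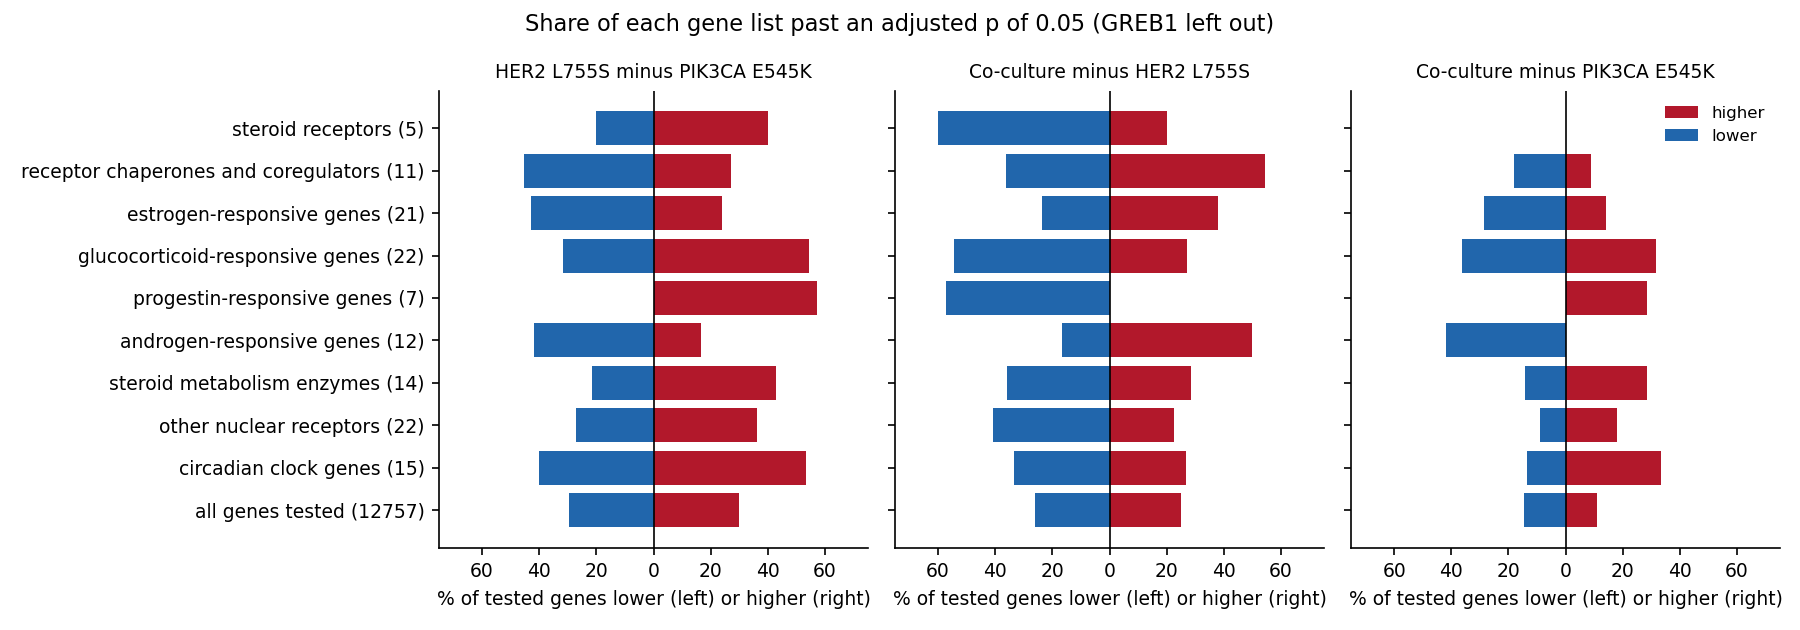
For each gene list, the percentage of tested genes that were higher (right) or lower (left) with an adjusted p under 0.05, in 3 comparisons that share arrays; the number of tested genes is in brackets and GREB1 is left out. The bottom bar is the same over all 12757 genes, with 30% higher and 29.5% lower in the HER2 L755S against the PIK3CA E545K line.

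Genes that act on the receptors or on their ligands moved in both directions. Of 11 chaperone and coregulator genes besides GREB1, 3 were higher and 5 lower in the HER2 L755S than in the PIK3CA E545K line, beside 30% and 29.5% of all genes, and the same shares apply to the counts of enzyme, receptor and clock genes that follow. BAG1, a co-chaperone gene, was higher by 2.13 ± 0.15, and the coactivator genes NCOA1 and NCOA2 by 1.47 ± 0.18 and 1.24 ± 0.13 (SE, limma adjusted p 3.39e-11, 1.98e-07 and 3.28e-08). FKBP4, a chaperone of steroid receptors, differed by -1.16, STIP1 by -0.70 and HSP90AA1 by -0.49. Of 14 tested enzyme genes of steroid metabolism, 6 were higher and 3 lower. AKR1C1, which inactivates progesterone, was higher by 3.65 ± 0.11 (limma adjusted p 6.64e-18). AKR1C3 and AKR1C2 were higher by 3.65 and 2.6, with the caution that the AKR1C genes are close relatives. HSD17B7 differed by -2.74 and HSD17B12 by -2.12. HSD11B2, which inactivates cortisol, was lower in the HER2 L755S line, at 5.36 to 5.76, than in the PIK3CA E545K line, at 6.50 to 7.05. SULT1E1, the estrogen sulfotransferase gene, was lowest in the co-culture, at 7.13 ± 0.63, against 10.09 ± 0.31 in the HER2 L755S line and 9.23 ± 0.43 in the PIK3CA E545K line (SD, n = 4 each). The co-culture differed by -2.96 ± 0.24 from the HER2 L755S line and by -2.10 ± 0.24 from the PIK3CA E545K line (SE, limma adjusted p 4.87e-10 and 8.78e-07).

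Receptors of other hormones and the circadian clock genes, to which PER1 belongs, also held genes of both directions. Of 22 tested receptor genes outside the steroid group, 8 were higher and 6 lower in the HER2 L755S than in the PIK3CA E545K line. NR1D2, the clock receptor REV-ERB beta, was higher by 2.84 ± 0.15 (SE, limma adjusted p 1.84e-13), the retinoid receptor gene RXRB by 1.32 and the thyroid receptor gene THRA by 1.30, while VDR differed by -1.10. Of 15 clock genes, 8 were higher and 6 lower. BHLHE40, a clock repressor gene, differed by -3.34 ± 0.15 and the core clock gene BMAL1 by -2.39 ± 0.16 (3.66e-15 and 1.38e-11). The harvest hour of the cultures is not given in the sources used here.

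The genes whose signal ran most like that of GREB1 over the 12 arrays were found by Pearson correlation among the other 12756 tested genes. The 8 highest were CERS6 (0.9964), VGLL3 (0.9959), WNT4 (0.9955), CFLAR (0.9952), TUT7 (0.9946), SLC47A2 (0.9942), USP54 (0.9942) and IL1R1 (0.9940). All 8 were high in the HER2 L755S line and far closer to the PIK3CA E545K than to the HER2 L755S level in the co-culture. This pattern follows from their choice by likeness to GREB1 and is no separate result. CERS6, a ceramide synthase gene, averaged 12.22 ± 0.09 in the co-culture, 14.65 ± 0.04 in the HER2 L755S line and 12.16 ± 0.11 in the PIK3CA E545K line (SD, n = 4 each). IL1R1, the interleukin-1 receptor gene, averaged 7.07 ± 0.12, 10.12 ± 0.09 and 6.59 ± 0.16 in these groups. In all, 430 genes correlated above 0.95 and 22 above 0.99. By this measure ZBTB16 ranked at 139, NR3C1 at 281, NR3C2 at 2107 and TSC22D3 at 2312. The points share arrays and fall into 3 groups, so the coefficients describe the pattern and carry no p.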

How the data were processed

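Log2 probe-set signals of 12 arrays were used as deposited. Per the submitters' processing notes, the authors' software was the Transcriptome Analysis Console, with no version given. Background correction, summarization, normalization and genome build are not given in the sources used here. Per the labels' protocols, column-purified RNA was labelled with a whole-transcript kit.

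Of 24351 probe sets, 17709 were named for 1 gene in the annotation of the series. The brightest was taken for the 20 genes with several, and genes above the 30th percentile of their array on at least 4 arrays were tested (12757). In limma 3.58.1 (R 4.3.3), the means of the 3 groups were estimated from all arrays at once, with the spread allowed to vary with signal. Tests were two-sided, with Benjamini-Hochberg adjustment over all genes and a threshold of 0.05. The difference from the blend was divided by a moderated standard error with delta-method weights. The method was tested on simulated data. Nothing in the labels says that the arrays of a group came from separate stocks, so p-values measure the spread between these cultures. The number of arrays limits the precision.

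The members and the 9 gene lists were chosen with earlier results of these data known. Named were all members, up to 4 genes of a list in each direction that passed and did not overlap, and the 8 genes most like GREB1. Some of these were not printed, a selection made with the values in view.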

Additional observations from a re-analysis of the deposited data

Results flagged for a closer look

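In each group of 4 arrays the highest and the lowest value were set against the other arrays by Dixon's ratio at its critical value. Over 96 genes this gave 288 groups, of which chance alone would flag about 1 in 20, and in 16 of them 1 array stood apart for that gene. These values are given as log2 signals, with no explanation.

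Among the 7 measured genes of the main set, ESR1 alone had such an array: co-culture replicate 1 read 2.78, against 3.25 for the nearest of the other co-culture arrays. In the co-culture, MT2A read 18.56 (nearest 18.29) and MT1X 17.14 (nearest 16.87) in replicate 1. SGK1 read 13.52 (nearest 13.74) and CFLAR 13.03 (nearest 13.12) in replicate 2.

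In the HER2 L755S line, replicate 1 had IL6ST at 12.57 (nearest 12.43) and NR1D2 at 10.91 (nearest 10.55). Replicate 2 had HSD17B12 at 9.58 (nearest 9.82) and THRA at 9.85 (nearest 9.19). ANGPTL4 read 3.62 in replicate 4 (nearest 4.44).

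In the PIK3CA E545K line, replicate 2 had XBP1 at 10.98 (nearest 11.21), WNT4 at 5.44 (nearest 5.69) and AKR1C2 at 10.61 (nearest 10.89). Replicate 3 had SULT1E1 at 8.59 (nearest 9.42), NR1D1 at 9.83 (nearest 8.55) and TUT7 at 11.16 (nearest 11.27).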

How the results depend on the processing

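The alternatives changed the filter on dim signals, the normalization, the estimate of the spread, the summary of several probe sets, the arrays in the fit and the share assumed for the blend. All 162 counts of higher or lower genes stayed within 1.5 times of the value reported, and the 401 values of NR3C1, NR3C2, TSC22D3, ZBTB16 and GREB1 kept their direction and, where tested, their side of the threshold. NR3C2 did not pass the stricter filter, set at the median of each array, and has no value under that setting. NR3C2 moved most, from 0.99 to 1.43 between the HER2 L755S and PIK3CA E545K lines, and reached an adjusted p of 0.0281 in limma against the blend. Of 7570 values of all genes followed, 109 no longer passed, 61 newly passed and 1 reversed. A change of sign was not counted for tested values that passed neither as reported nor under the alternative. The reversed value was CCND1 against the blend, at -0.04 with 65% HER2-mutant cells and 0.42 with 75%. Leaving out 1 array at a time gave 3608 to 3833 higher and 3561 to 3757 lower genes in the HER2 L755S against the PIK3CA E545K line, 3015 to 3159 and 3033 to 3294 in the co-culture against the HER2 L755S line, 1173 to 1511 and 1560 to 1991 against the PIK3CA E545K line, and 2113 to 2393 and 2500 to 2821 against the blend.

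With the replicate number as a block, the counts were 3839 higher and 3765 lower for the HER2 L755S against the PIK3CA E545K line, and no call of the main genes changed. The numbers did not pair the arrays: in 12 pairs of the same number the deviations correlated at -0.03 to 0.06, and 2 of 12 best matches had the same number.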
